A study of Mus musculus with 4 samples.

Results

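The genes described here are 9 of the 32285 features counted: 5 genes that mark resident-type macrophages (Retnla, Mrc1, Cd163, Folr2 and Lyve1) and 4 that mark recruited, monocyte-derived macrophages (Chil3, Arg1, Ly6c2 and Clec10a). They were taken by symbol. All 9 had unique molecular identifier (UMI) counts in all 4 sections, and the UMIs of a gene summed over the sections ranged from 835 for Arg1 to 16993 for Mrc1. Chil3, Arg1 and Ly6c2 kept to the recruited-type name in their timing, being close to 0 in the uninjured section and higher at days 1 and 3. A list of neutrophil genes was also higher at those days, and which cells held these genes was not tested. Clec10a went against the name: it was present in the uninjured section and highest at day 7. The resident-type genes did not move as a set either, since Retnla fell after injury on all days while Mrc1 rose.

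The samples were Visium sections, in which RNA is captured on barcoded spots that each cover several cells, of tibial muscle from Nse-Bmp4 mice on the C57BL/6 background, 6 to 8 weeks old. All groups carried this transgene, in which the neuron-specific enolase promoter drives Bmp4, and the line is a model of heterotopic ossification (HO), in which injured muscle forms cartilage and bone. One group was uninjured (day 0) and the others were taken at 1, 3 or 7 dpi, the days after injury with cardiotoxin (CTX), a snake-venom toxin that kills muscle fibres. The labels mention 3 tibial muscles mixed for a group but do not say how they relate to a section. With 1 section per day, 4 in all, no spread between animals could be measured, no test between days was possible, and each interval below is a 95% interval of counting error only.

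Tissue-resident macrophages live in uninjured muscle, many of them in the connective tissue and along vessels, where they take up debris, haemoglobin and hyaluronan through scavenger receptors. After injury, classical monocytes enter from blood and become inflammatory macrophages, which later give way to cells with repair functions. The markers overlap: interleukin 4 and interleukin 13, acting through STAT6, can raise Retnla, Mrc1, Chil3, Arg1 and Clec10a in the same cell, so that these genes also report an activation state.

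The 250 bases before the transcription start are shown for 4 genes, Retnla and Mrc1 because they moved apart although both are resident-type, and Chil3 and Ly6c2 because their levels were the most alike across tissue regions. Capitals mark matches, on either strand, to 4 motifs: TTC and GAA with 4 bases of any kind between them (STAT6), TTNNGNAA (C/EBP), GAGGAA (the PU.1 core) and TATAAA (the TATA box), and where 2 matches overlap they form 1 run. The sequences are from RefSeq, build GRCm38.p6, and run 5′ to 3′ on the strand of the gene.
Retnla, chr16:48842359-48842608, plus strand: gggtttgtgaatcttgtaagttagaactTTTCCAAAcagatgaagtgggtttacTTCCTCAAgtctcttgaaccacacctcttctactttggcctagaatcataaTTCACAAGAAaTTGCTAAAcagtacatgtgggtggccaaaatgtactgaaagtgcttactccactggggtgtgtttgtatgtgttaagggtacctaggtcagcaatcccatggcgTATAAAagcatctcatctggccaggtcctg
Mrc1, chr2:14229164-14229413, plus strand: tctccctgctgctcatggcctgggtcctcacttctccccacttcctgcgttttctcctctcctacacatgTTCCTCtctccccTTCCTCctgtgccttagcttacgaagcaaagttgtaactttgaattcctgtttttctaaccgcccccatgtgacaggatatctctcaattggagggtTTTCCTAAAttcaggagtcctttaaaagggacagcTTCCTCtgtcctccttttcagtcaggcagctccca
Chil3, chr3:106167565-106167814, minus strand: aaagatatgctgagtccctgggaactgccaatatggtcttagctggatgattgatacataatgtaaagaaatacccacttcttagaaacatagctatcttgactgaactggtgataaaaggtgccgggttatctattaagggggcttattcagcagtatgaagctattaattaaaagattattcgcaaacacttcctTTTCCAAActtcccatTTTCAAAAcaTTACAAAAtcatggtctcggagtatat
Ly6c2, chr15:75111972-75112221, minus strand: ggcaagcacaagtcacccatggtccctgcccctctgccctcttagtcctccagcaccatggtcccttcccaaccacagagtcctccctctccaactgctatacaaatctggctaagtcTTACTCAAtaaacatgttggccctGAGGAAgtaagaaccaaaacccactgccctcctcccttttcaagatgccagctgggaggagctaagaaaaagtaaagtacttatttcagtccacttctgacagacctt
The Retnla window held a STAT6 match 145 bases before the start, 3 C/EBP matches, 1 PU.1 match that overlaps a C/EBP match, and a TATA match 30 bases before the start. Mrc1 had 2 overlapping C/EBP matches and 3 PU.1 matches, Chil3 had 3 C/EBP matches and no other, and the Ly6c2 window shown had 1 C/EBP and 1 PU.1 match. The table gives Ly6c2 another start, whose window, chr15:75111938-75112187, overlaps the one shown and held 2 C/EBP and 2 PU.1 matches. Of 32851 such windows over all genes, 5.85% held the STAT6 letters, 36.8% the C/EBP letters, 23.3% the PU.1 letters and 12.4% the TATA letters, on either strand. A match describes the letters and does not show that a factor binds. Windows were found for 6 of the 9 genes, and those of Lyve1, Arg1 and Clec10a were not analysed here.

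The sections held 2107, 2667, 3029 and 3032 spots at days 0, 1, 3 and 7, with 43871586, 16777832, 56113066 and 41832640 UMIs and a median of 21029, 6322, 16087 and 12119.5 UMIs per spot. Levels are given as counts per 1000000 UMIs of the section (CPM), and "higher" or "lower" without a number refers to this scale. Adult myofibre transcripts went from 295343 CPM in the uninjured section to 95945 CPM at 3 dpi. With edgeR TMM factors in place of section totals the log2 ratio of every gene to day 0 was lower by 0.21, 0.55 and 0.61 at days 1, 3 and 7, and with a total without muscle, mitochondrial and haemoglobin genes by 0.22, 0.47 and 0.32. Why the scalings differ was not tested. Any pair of sections shared 1539 to 2311 spot barcodes, which are positions of a fixed array and not shared cells.

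**Figure D1:**
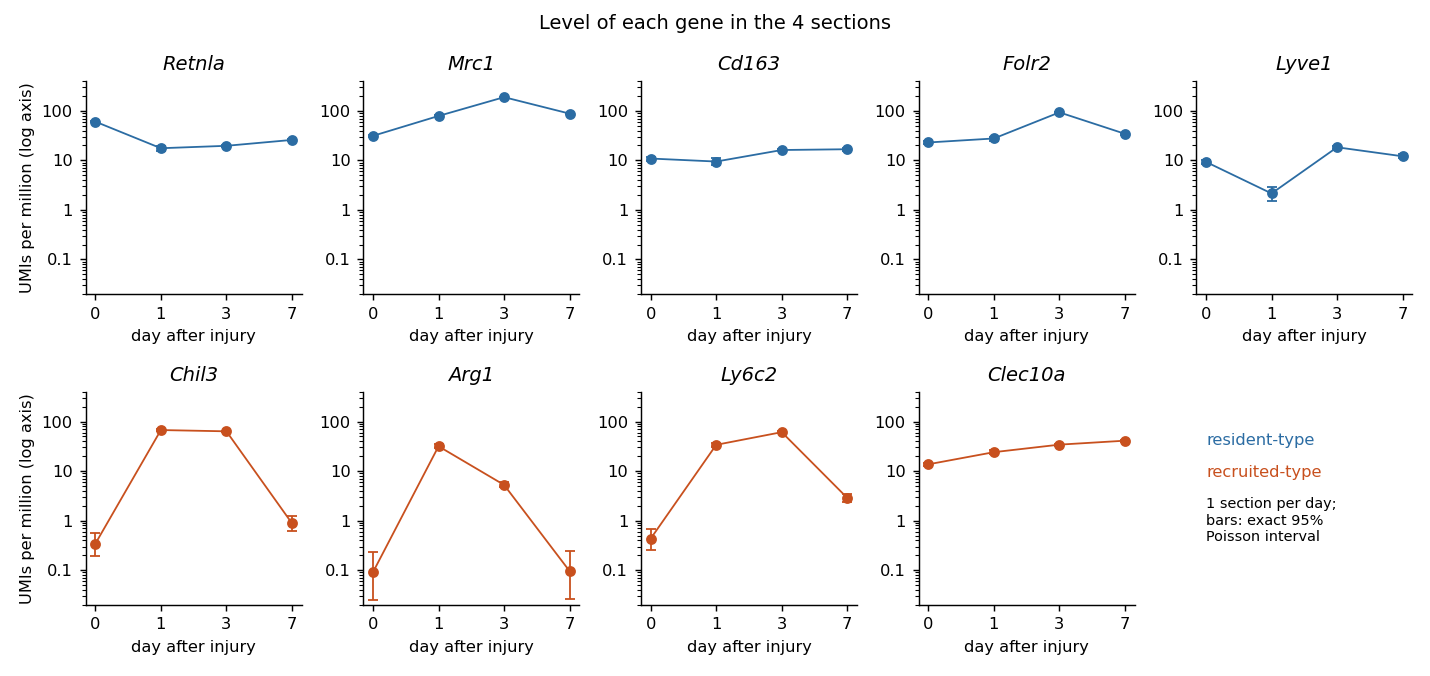
Level of each gene in the 4 sections, in CPM on a log axis, with 1 panel per gene, days after injury on the horizontal axis and bars for the 95% Poisson interval of the counts. Chil3, Arg1 and Ly6c2 were near 0 at days 0 and 7 and high between, Retnla fell from 60.6 to 17.6 CPM at day 1, and Clec10a climbed from 13.7 to 41.1 CPM.

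Chil3 encodes Ym1, a secreted chitinase-like protein of macrophages that neutrophils also make. It lies at chr3:106147554-106167564 and was counted at 0.342 (0.191 to 0.564), 67.4 (63.5 to 71.4), 63.5 (61.4 to 65.6) and 0.884 (0.623 to 1.22) CPM at days 0, 1, 3 and 7. Days 1 and 3 stood far above the others, and their intervals overlapped. Against day 0 the Chil3 level was 197-fold (119 to 353) higher at 1 dpi and 186-fold (112 to 332) higher at 3 dpi, from 15 UMIs in the uninjured section, and from day 3 to day 7 it dropped 71.7-fold (52.0 to 102). In these sections fewer cells of a type and less RNA per cell cannot be told apart.

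Arg1 encodes arginase 1, which turns arginine into ornithine and urea. Located at chr10:24915207-24927470, it had 4, 532, 295 and 4 UMIs at days 0, 1, 3 and 7, or 0.0912 (0.0248 to 0.233), 31.7 (29.1 to 34.5), 5.26 (4.67 to 5.89) and 0.0956 (0.0261 to 0.245) CPM. The peak was at day 1 alone, and the intervals of days 0 and 7 overlapped. The Arg1 ratio to day 0 was 348 (135 to 1281) at 1 dpi and 57.7 (22.3 to 213) at 3 dpi, and from day 1 to day 3 the level fell 6.03-fold (5.22 to 6.98) while that of Chil3 was 0.942 times (0.881 to 1.01) the day 1 level.

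Ly6c2, at chr15:75108161-75112066, encodes a surface antigen by which classical monocytes are sorted. Its levels were 0.433 (0.261 to 0.676), 33.9 (31.2 to 36.8), 61.1 (59.1 to 63.2) and 2.87 (2.38 to 3.43) CPM at days 0, 1, 3 and 7. Here the peak was at day 3, 1.80 times (1.65 to 1.97) the day 1 level, and all 4 intervals were apart. Against day 0 the gene was 78.3-fold (49.7 to 131), 141-fold (90.2 to 235) and 6.62-fold (4.06 to 11.4) higher at 1, 3 and 7 dpi.

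The peaks of these 3 genes thus came at different days: Arg1 at day 1, Chil3 at days 1 and 3 alike, and Ly6c2 at day 3. Ly6c1, the near-identical neighbour of Ly6c2 that endothelial cells also express, had 185, 158, 213 and 286 CPM at days 0, 1, 3 and 7, so any reads shared between these copies make the Ly6c2 level uncertain. Chil4, the close paralog of Chil3, and Retnlb, a paralog of Retnla, were at 0 in all 4 sections.

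Clec10a encodes a C-type lectin of macrophages and dendritic cells that binds galactose-type sugars. The gene, at chr11:70166623-70170836, had 13.7 (12.6 to 14.9), 24.1 (21.8 to 26.5), 34.2 (32.7 to 35.8) and 41.1 (39.2 to 43.1) CPM at days 0, 1, 3 and 7. Each section was above the one before it with no overlap of intervals, and day 7 was 3.00-fold (2.73 to 3.30) above day 0. Its paralog Mgl2 was lower than at day 0 at all later days, with 12.4, 2.26, 10.6 and 9.49 CPM. Clec10a made up 94.1% of the UMIs of the recruited-type genes at day 0 and 91.4% at day 7, against 15.3% and 20.9% at days 1 and 3, so sums over the recruited-type list at days 0 and 7 describe Clec10a. A list of 8 dendritic cell genes had 8.16, 16.7, 37.2 and 31.6 CPM with all 8 genes detected in every section. As a sum it was higher than at day 0 after injury and highest at day 3. Cd209a made up 46.7% of its UMIs at day 3, and Zbtb46 69.3% at day 0. The single genes differed: Cd209a, Flt3, Clec9a and Siglech were highest at day 3. Itgax, Ccr7 and Zbtb46 were highest at day 7, as Clec10a was, and Xcr1 was alike on these days. The part of these cells in the Clec10a level was not tested.

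Retnla encodes RELMα, a small secreted protein that macrophages make in response to interleukin 4 and interleukin 13 and that is also made in adipose tissue. At its locus, chr16:48842609-48844461, 2660, 296, 1105 and 1085 UMIs were counted at days 0, 1, 3 and 7, which is 60.6 (58.3 to 63.0), 17.6 (15.7 to 19.8), 19.7 (18.5 to 20.9) and 25.9 (24.4 to 27.5) CPM. The uninjured section was the high one, days 1 and 3 overlapped, and day 7 lay between. The level was 3.44-fold (3.05 to 3.89), 3.08-fold (2.87 to 3.31) and 2.34-fold (2.18 to 2.51) lower than at day 0. One spot held 82 of the 296 Retnla UMIs of the day 1 section (27.7%), and without it the day 1 level was 12.8 CPM.

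Lyve1, a receptor for hyaluronan on some resident macrophages and on lymphatic endothelium (chr7:110850607-110862953), had 9.32 (8.44 to 10.3), 2.15 (1.5 to 2.97), 18.4 (17.3 to 19.6) and 12.1 (11.1 to 13.2) CPM at days 0, 1, 3 and 7. It was lowest at day 1, with 36 UMIs, and highest at day 3, with no overlap between any of the sections. The Lyve1 level fell 4.34-fold (3.09 to 6.29) from day 0 to day 1 and rose 8.58-fold (6.16 to 12.3) from day 1 to day 3. Prox1, a transcription factor of lymphatic endothelium, was at 1.37, 0.596, 1.48 and 4.85 CPM, so it was lowest at day 1 too but highest at day 7. The part of lymphatic vessels in the Lyve1 level was not tested.

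Cd163 encodes the scavenger receptor for haemoglobin bound to haptoglobin, at chr6:124304636-124330529. It varied least of the 9 genes between sections, with 10.9 (9.92 to 11.9), 9.48 (8.06 to 11.1), 16.2 (15.2 to 17.3) and 16.8 (15.5 to 18) CPM at days 0, 1, 3 and 7. Days 0 and 1 overlapped and days 3 and 7 overlapped. Its ratio to day 0 was 0.872 (0.724 to 1.05), 1.49 (1.33 to 1.67) and 1.54 (1.37 to 1.74).

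Folr2, which encodes folate receptor beta (chr7:101839988-101857190), had 23.0 (21.6 to 24.5), 27.7 (25.2 to 30.3), 93.2 (90.7 to 95.8) and 34.4 (32.6 to 36.2) CPM at days 0, 1, 3 and 7. Day 3 stood apart, 4.05-fold (3.79 to 4.34) above day 0 and 2.71-fold (2.56 to 2.88) above day 7. By section CPM, Folr2, Cd163 and Lyve1 were 1.49, 1.54 and 1.30 times the day 0 level at day 7, but this direction turned with other scalings, to log2 ratios of -0.027 for Folr2 and -0.23 for Lyve1 with TMM factors and -0.011 for Cd163 with DESeq2 size factors.

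Mrc1, at chr2:14229414-14332023, encodes the mannose receptor CD206. Its values were 31.3 (29.6 to 32.9), 78.9 (74.7 to 83.3), 189 (186 to 193) and 87.9 (85.1 to 90.8) CPM at days 0, 1, 3 and 7. Every injured section was above the uninjured one, and the highest was day 3. The Mrc1 ratio to day 0 was 2.53 (2.34 to 2.73), 6.06 (5.72 to 6.41) and 2.81 (2.64 to 3.00).

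The share of genes with a 2-fold change gives the background for these counts. From day 0 to day 1, 4 of the 9 genes (Mrc1, Chil3, Arg1 and Ly6c2) were at least 2-fold higher and 2 (Retnla and Lyve1) at least 2-fold lower, against 17.4% and 11.4% of the 15091 genes compared. At day 3 the counts were 6 higher (Mrc1, Folr2, Chil3, Arg1, Ly6c2 and Clec10a) and 1 lower (Retnla) of 9, against 33.3% and 8.26% of all genes. With TMM factors, DESeq2 size factors or a total without muscle genes, 5 were higher at day 3, without Clec10a, and the share of all genes was 19.8%, 19.6% and 21.4%. At day 7 they were 4 higher (Mrc1, Chil3, Ly6c2 and Clec10a) and 1 lower (Retnla) of the 8 genes with enough UMIs, Arg1 being left out, against 32.7% and 2.13%. With TMM factors 1 of the 8 (Ly6c2) was higher at day 7, beside 15.7% of all genes. The genes called lower with TMM at days 1, 3 and 7 were the same as by section CPM. Of all genes 15.1%, 16.4% and 6.62% were lower on those days with TMM, so the 1 of 9 at day 3 did not exceed the background. All these comparisons share the day 0 section.

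The injured sections were also compared with each other. From day 1 to day 3, 3 resident-type genes (Mrc1, Folr2 and Lyve1) were at least 2-fold higher and Arg1 was at least 2-fold lower, against 18.1% and 3.13% of all genes. With TMM factors Mrc1 no longer reached 2-fold, and 10.8% of all genes were higher and 5.86% lower. From day 3 to day 7, 0 of the 9 genes were at least 2-fold higher and 5 were lower (Mrc1, Folr2, Chil3, Arg1 and Ly6c2), against 16.1% and 11.8%. The median log2 ratio from day 3 to day 7 was -0.61 over the resident-type genes and -5.10 over the recruited-type genes, beside 0.08 over all genes.

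Summed over each list, resident-type UMIs were at 135 (132 to 139), 136 (130 to 142), 337 (332 to 342) and 177 (173 to 181) CPM at days 0, 1, 3 and 7. Recruited-type UMIs were at 14.6 (13.5 to 15.8), 157 (151 to 163), 164 (161 to 167) and 45.0 (43.0 to 47.1) CPM, or 0.866, 133, 130 and 3.85 CPM without Clec10a. The recruited-type share of the UMIs of all 9 genes was therefore 9.75% (9.04 to 10.5), 53.6% (52.2 to 55.0), 32.8% (32.2 to 33.3) and 20.3% (19.4 to 21.1) in the sections of days 0, 1, 3 and 7, a measure that does not depend on the scaling. It was highest at day 1 and fell at each later day without returning to the day 0 share. The equal resident-type sums at days 0 and 1 held different genes: Retnla made up 44.9% of the sum at day 0 and 13% at day 1, and Mrc1 23.1% and 58.1%.

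A list of 12 pan-macrophage genes, which includes Adgre1, Csf1r, Cd68 and the C1q genes and none of the 9, had 278, 1005, 4227 and 1195 CPM in the 4 sections in order of day, with all 12 genes detected in each section. Set against it, the resident-type genes lost ground. Retnla fell from 218 UMIs per 1000 pan-macrophage UMIs at day 0 to 17.6, 4.66 and 21.7 at days 1, 3 and 7, which is 46.8-fold (43.6 to 50.3) lower at day 3. Lyve1 went from 33.5 to 2.14, 4.36 and 10.1, and Cd163 from 39.1 to 9.43, 3.83 and 14.0. Folr2 was at 82.8, 27.5, 22.1 and 28.8 per 1000. These 4 genes were lower than at day 0 on every injured day with any of the 12 pan-macrophage genes alone as the denominator.

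Mrc1, whose CPM rose, was at 112, 78.6, 44.8 and 73.6 UMIs per 1000 pan-macrophage UMIs at days 0, 1, 3 and 7. It was lower than at day 0 with 9 of the 12 single denominators at 1 dpi, with 12 at 3 dpi and with 11 at 7 dpi. Clec10a followed the resident-type genes on this scale as well, with 49.4, 24.0, 8.10 and 34.4, and was lower with 10, 12 and 9 of the 12 single denominators.

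Chil3, Arg1 and Ly6c2 did the reverse at days 1 and 3. Chil3 was at 1.23, 67.0, 15 and 0.740 UMIs per 1000 pan-macrophage UMIs, Arg1 at 0.328, 31.6, 1.24 and 0.0800, and Ly6c2 at 1.56, 33.8, 14.5 and 2.40. All 3 were highest at day 1, so the day 3 peak of Ly6c2 in CPM was not a peak against the macrophage list. At days 1 and 3 they were above day 0 with each of the 12 single denominators. At day 7 Chil3 was below day 0 with 11 of the 12, Arg1, on 4 UMIs in each section, with 12, and Ly6c2 with 2.

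**Figure D2:**
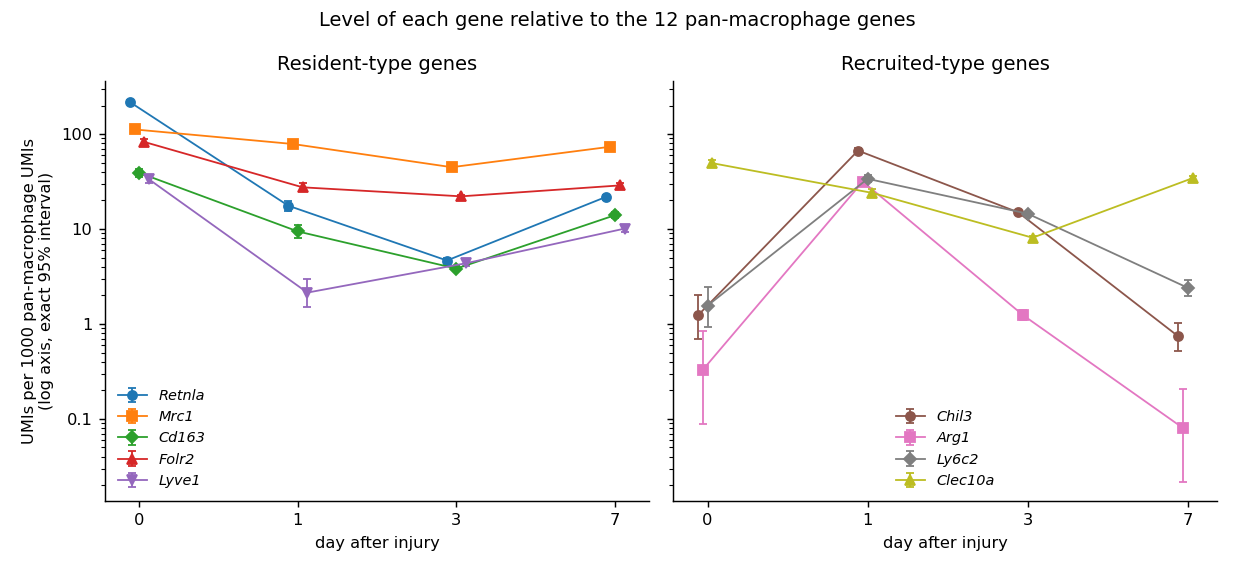
UMIs of each gene per 1000 UMIs of the 12 pan-macrophage genes at days 0, 1, 3 and 7, on a log axis, with 95% intervals of the counts as bars. The 5 resident-type genes and Clec10a were highest at day 0, Chil3, Arg1 and Ly6c2 at day 1, and Retnla went from 218 to 4.66 between days 0 and 3.

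The percentage of spots in which a gene was found, after reducing each spot to 2000 UMIs and leaving out the 17, 513, 9 and 84 spots below that, followed the levels. Chil3 was in 0.0558%, 12%, 9.83% and 0.170% of spots at days 0, 1, 3 and 7, and with all UMIs in 0.617%, 26.2%, 45.4% and 1.02%. Retnla was in 9.14% (7.94 to 10.5), 2.19% (1.61 to 2.89), 3.98% (3.31 to 4.73) and 4.56% (3.82 to 5.36), and with all UMIs in 37.9%, 4.12%, 14.2% and 16.3%. For Mrc1 the shares at 2000 UMIs were 6.57%, 14.2%, 27.2% and 16.7%.

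Spots in the top 10% for adult myofibre genes served as the background for these shares, although they too can hold a macrophage. Their median depth was 20765, 8265, 9153 and 11029 UMIs per spot at days 0, 1, 3 and 7, against 21110, 7470, 16114 and 12411 for all spots used, before the reduction. At day 1, 2.97% (1.03 to 5.95) of them had Chil3, against 12% (10.6 to 13.4) of all spots, and at day 3 12.4% (9.06 to 16.9) had Mrc1, against 27.2% (25.6 to 28.8). The Retnla share of myofibre-rich spots was 3.10% (1.06 to 6.14) in the uninjured section, below that of all spots, but 6.14% (3.83 to 9.65) and 6.96% (4.46 to 10.7) at 3 and 7 dpi, where it was not below. The share of all spots lay above the whole interval of the myofibre-rich spots for Retnla at day 0, Mrc1 at days 1, 3 and 7, Folr2 at day 3, Chil3, Ly6c2 and Clec10a at days 1 and 3, and Arg1 at day 1. For every other gene and day, Cd163 and Lyve1 on all days and Mrc1 at day 0 included, it did not, and those shares are not told apart from the background.

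**Figure D3:**
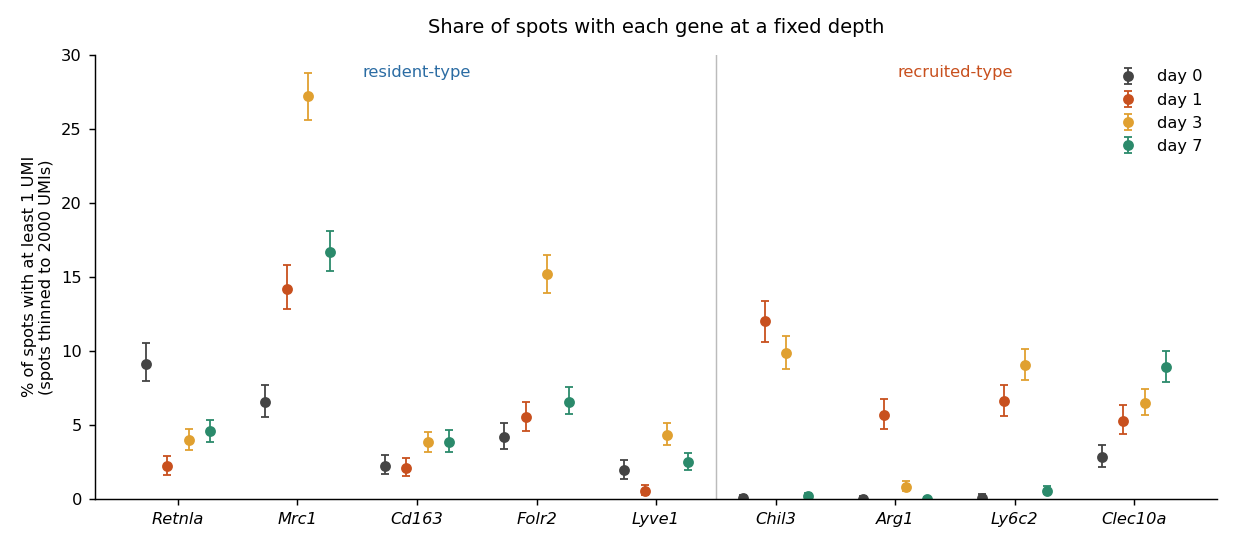
Percent of spots in which each gene was found after reducing every spot to 2000 UMIs, at days 0, 1, 3 and 7, with 95% Clopper-Pearson intervals. Mrc1 reached 27.2% of spots at day 3, and Arg1 was in 5.66% of spots at day 1 and under 1% on the other days.

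Within each section, resident-type and recruited-type UMIs rose together only weakly from spot to spot. At 2000 UMIs per spot, Spearman's rho between the summed UMIs of the lists was 0.10, 0.22, 0.15 and 0.14 at days 0, 1, 3 and 7, the mean over 20 draws of the UMIs. Spots of a section share a library and the counts are sparse, so these values are given as descriptions only.

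The place of some of the genes in the tissue changed with the day. In the uninjured section the 10% of spots richest in pan-macrophage UMIs had 4.38 to 6.85 times the level of the other spots for the genes with at least 100 UMIs. At day 3 Folr2, Mrc1 and Clec10a lay below that range, at 2.52, 2.30 and 2.21. Ly6c2 was at 3.55, Chil3 at 2.81 and Arg1 at 2.03 (2.95 with the richest 20%). These genes, with 19, 15 and 4 UMIs at day 0, were not part of the day 0 range. Retnla was at 1.33 times (1.09, 0.959 to 1.25, with the richest 20%), Cd163 at 1.15 (0.956 to 1.37) and Lyve1 at 1.11 (0.935 to 1.31). At day 3, spots rich in pan-macrophage UMIs were thus rich in Ly6c2 and Chil3, and the level of Cd163 or Lyve1 in them was within counting error of that elsewhere.

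Retnla, Cd163 and Lyve1 were instead high at day 3 in spots rich in adipocyte genes. The 10% of spots richest in those genes had 154 CPM of Retnla against 12.1 in the other spots, which is 12.8-fold (11.3 to 14.4) higher, and the ratio was 6.41 for Cd163 and 3.86 for Lyve1. With the richest 20% of spots these ratios were 6.72 (5.96 to 7.57), 3.53 and 2.43. Chil3 and Ly6c2 were lower there, at 0.585 and 0.384 times the other spots. The Retnla ratio at adipocyte-rich spots was 2.24 (2.01 to 2.49), 1.24 (0.771 to 1.90) and 2.11 (1.76 to 2.52) at days 0, 1 and 7, so that at day 1 it was within counting error of 1. Clec10a was higher at adipocyte-rich spots on all days, with 3.26, 7.00, 2.44 and 4.16 times the level of other spots, or 2.06, 4.17, 1.42 and 2.96 times with the richest 20%. At day 1, Chil3 and Ly6c2 were higher at adipocyte-rich spots too, at 2.18 and 2.74 times, or 1.5 and 1.48 times with the richest 20%.

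Toward myofibres the direction of Retnla turned. Spots richest in adult myofibre genes had 0.255 and 0.390 times the Retnla level of other spots at days 0 and 1, but 2.09 times (1.71 to 2.54) at day 3 and 1.41 times (1.16 to 1.70) at day 7. With the richest 20% of spots the day 3 ratio was 1.86 (1.59 to 2.17), but that of day 7 was 1.10 (0.937 to 1.28), within counting error of 1. Lyve1 was higher in spots richest in lymphatic endothelial genes, 1.70 (1.26 to 2.25), 3.67 (3.15 to 4.27) and 5.26 times (4.34 to 6.34) that of other spots at days 0, 3 and 7, and at day 1 the ratio was 2.27 (0.687 to 5.90). With the richest 20% of spots the day 3 ratio was 2.10 (1.83 to 2.40). Pdpn made up 49.5%, 89.9% and 71.3% of the UMIs of the lymphatic list at days 0, 1 and 3, and Ccl21a 58.7% at day 7. Pdpn was at 17.1, 97.7, 84.8 and 41.0 CPM, highest at day 1, where Prox1 was lowest. Spots rich in this list are therefore mainly Pdpn-rich spots at days 1 and 3. The part of adipocytes, muscle and lymphatic vessels in these levels was not tested.

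**Figure D4:**
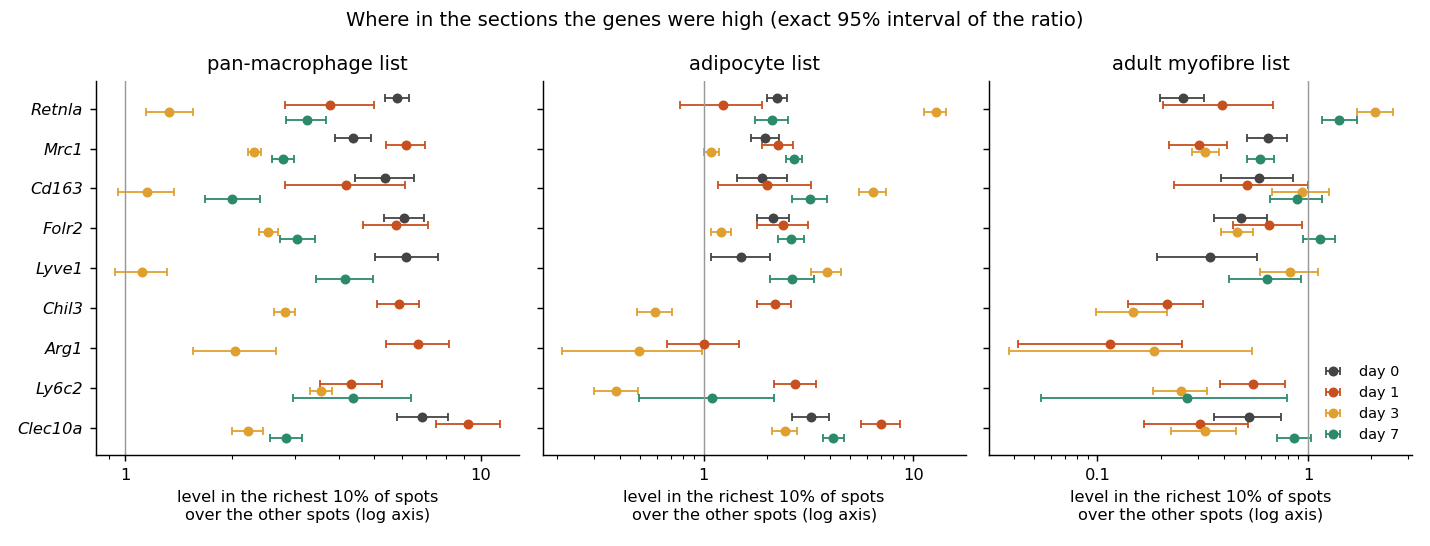
Ratio of each gene's level in the 10% of spots richest in pan-macrophage, adipocyte or adult myofibre genes (1 panel each) to its level in the other spots, at days 0, 1, 3 and 7, on a log axis with 95% intervals, for genes with at least 100 UMIs in the section. At day 3 Retnla stood at 12.8 in the adipocyte panel and at 1.33 in the pan-macrophage panel.

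A list of 9 neutrophil genes, at 1.62, 160, 55.8 and 7.84 CPM at days 0, 1, 3 and 7, was highest at day 1, as Arg1 was, and lower at day 3, when Chil3 kept its level and Ly6c2 was higher. At day 1 the spots richest in it had 3.53 times the Chil3 level, 3.97 times the Arg1 level, 2.59 times the Ly6c2 level and 4.55 times the Clec10a level of other spots (3.01 times for Clec10a with the richest 20%). Those spots were also richer in Mrc1 (2.89 times), Folr2 (2.59 times) and the pan-macrophage list (2.30 times), so the higher level was not limited to the recruited-type genes. S100a8, an abundant neutrophil gene, had 0.524, 58.8, 15.6 and 1.53 CPM. The granule gene Ngp had 1, 0, 0 and 0 UMIs and the surface marker Ly6g 0, 1, 0 and 0. Their part in the Chil3 and Arg1 levels was not tested.

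Spots of each section were grouped by their expression, without the 9 genes and the marker lists, into 26 regions of at least 20 spots, 5 in the uninjured section and 7 in each of the others. Regions are named here by number and leading genes, the 5 with the largest ratio to the rest of the section. Over regions, the recruited-type share of the UMIs of the 9 genes ranged from 8.59% to 16.0% in the uninjured section, and from 24.4% to 61.4%, 15.4% to 38.2% and 13.5% to 24.1% in those of 1, 3 and 7 dpi. The region shares of day 1 thus all lay above those of day 0. The intervals of the nearest regions overlapped, at 24.4% (15.3 to 35.4) for day 1 and 16.0% (13.2 to 19.0) for day 0.

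In the uninjured section Retnla was highest in region 4, 204 spots led by Fmod, Sfrp2, Sfrp4, Eln and Myh11, genes of fibrous connective tissue and smooth muscle. Its level there was 205 CPM, 4.75 times (4.38 to 5.14) the rest of the section, and the region held 36.3% of the section's Retnla UMIs. Clec10a was highest in region 5, led by the fat genes Pck1 and Cidec with Nnat, Hp and Wfdc21, at 41.3 CPM.

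At day 1 Chil3 and Arg1 were highest in 1 region and Ly6c2 and Clec10a in another. Region 3, 427 spots led by Lars2, Thbs1, Arg1, Ppbp and AY036118, had 276 CPM of Chil3 and 230 CPM of Arg1, though at a median of only 980 UMIs per spot. Region 4, 307 spots led by Retnla, Slfn4, Clec10a, Rassf2 and Oas2, had 228 CPM of Chil3, 116 CPM of Ly6c2, 291 CPM of Mrc1 and 121 CPM of Clec10a. It also held 52.7% of the Retnla UMIs and 51.0% of the Clec10a UMIs of that section, at 9.83 and 9.18 times the level of the other spots. The spot with 82 Retnla UMIs lay in region 4, and without it the region had 43.7 CPM of Retnla, 4.71 times the other spots, and 34.6% of the section's Retnla UMIs. Genes of both lists were therefore high in the same region at day 1.

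At day 3 the highest levels of Retnla, Cd163 and Lyve1 were apart from those of Chil3 and Ly6c2. Region 1, 724 spots led by Spp1, Slfn4, Sfrp2, Adam8 and Ms4a4c, with 7511 CPM of the pan-macrophage list, held 70.4% of the section's Ly6c2 UMIs and 63.8% of its Chil3 UMIs, at 134 and 126 CPM. Retnla was at 7.76 CPM in region 1, 0.306 times the rest of the section, while Mrc1 was at 325 and Folr2 at 160 CPM. Region 7 had 72 spots, 2.38% of the section, led by the fat genes Wfdc21, Pck1, Cfd, Hp and Cidec. In it Retnla was at 489 CPM against 14.7 in the rest of the section, 33.3-fold (29.0 to 38.1) higher, so that 26.2% of the section's Retnla came from 1.06% of its UMIs. Cd163 was at 291 CPM there (22.0 times the rest), Lyve1 at 199 (12.1 times), Clec10a at 263 (8.27 times), Folr2 at 273 (2.99 times) and Mrc1 at 492 (2.64 times), and Chil3 and Ly6c2 were at 0.449 and 0.383 times the rest. Per 1000 pan-macrophage UMIs Retnla was at 95.6 in region 7 and at 1.03 in region 1. Without its richest spot, region 7 had 433 CPM of Retnla, 29.5 times the rest. With a finer grouping, a fat-gene region of 77 spots had 465 CPM of Retnla.

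At day 7 Retnla, Lyve1, Folr2, Clec10a and Cd163 were low in the region richest in cartilage genes. Region 6, 280 spots led by Col10a1, Col9a1, Col9a3, Col2a1 and Slc13a5 and with 12863 CPM of the cartilage list, had 3.67 CPM of Retnla, 0.130 times the rest of the section, and 2.45 CPM of Lyve1, 0.186 times. Folr2, Clec10a and Cd163 were at 0.374, 0.427 and 0.559 times the rest but Mrc1 at 1.06 times. The Mrc1 level depended on the grouping. With a finer one, 186 spots led by Col10a1 and Col2a1, with 20946 CPM of the cartilage list, had 61.5 CPM of Mrc1. That is below the 87.9 CPM of the section. A region of 90 spots led by Lrrc15, with 5108 CPM of the cartilage list, had 127 CPM of Mrc1. Clec10a was highest in region 3, a group of 381 spots, at 124 CPM and 3.93 times the rest, where Retnla was also at its highest for that day, at 62.7 CPM. Lyve1 was highest in region 7, led by Mt2, Mt1, Rrad, Fbxl22 and Ccl2, at 44.3 CPM.

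**Figure D5:**
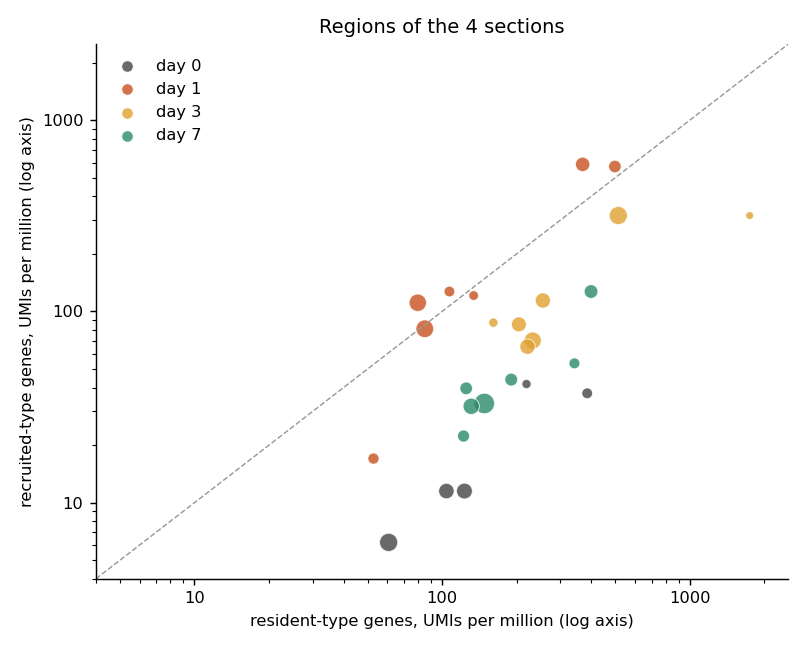
Summed resident-type level (horizontal axis, CPM, log scale) and recruited-type level (vertical axis, CPM, log scale) in each of the 26 regions, coloured by day, with the size of a point showing the number of spots. The 7 regions of day 1 have recruited-type shares of 24.4% to 61.4%, and region 7 of day 3, with 489 CPM of Retnla, lies farthest right.

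Over the 26 regions, which come from 4 libraries and differ in depth, the levels of Chil3 and Ly6c2 were the most alike among the recruited-type genes, with a Pearson correlation of log2(CPM + 1) of 0.930, and that of Mrc1 and Folr2 was 0.856. Clec10a resembled Mrc1 (0.843), Folr2 (0.827) and Cd163 (0.824) rather than Chil3 (0.181) or Arg1 (0.0837). The correlation of Retnla with Mrc1 was 0.215. Among all other genes, the most alike to Chil3 were Cd177, Sirpb1c and Ccr1 (0.958, 0.95 and 0.945), to Arg1 S100a9, Ppbp and S100a8 (0.931, 0.931 and 0.927) and to Ly6c2 Cd52, Fcgr1 and Ftl1 (0.958, 0.954 and 0.95). For Mrc1 they were Naaa, F13a1 and Xdh (0.964, 0.961 and 0.947), for Folr2 Xdh, Alox5 and F13a1 (0.883, 0.864 and 0.861), and for Clec10a Scamp2, H2-T22 and Ap2a2 (0.869, 0.865 and 0.864). Cd209b, a C-type lectin, was among the 3 most alike genes for Cd163 (0.832), Lyve1 (0.853) and Retnla (0.662). The other genes were Slc13a3 (0.858) and Adm (0.848) for Cd163, Adamts5 (0.898) and Cadm3 (0.883) for Lyve1, and Mfsd8 (0.771) and Tst (0.726) for Retnla.

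Other genes of each state gave the setting. Of 15 other resident-type genes, 14 had enough UMIs from day 0 to day 1, and 4 were at least 2-fold higher (F13a1, Cbr2, Pf4 and Ccl8), 4 lower (Timd4, Cd209f, Cd209g and Fcna) and 6 within 2-fold, beside 17.4% higher and 11.4% lower of all genes. Those that were lower stood at 0.101, 0.103, 0.137 and 0.109 times day 0. At day 3, 10 of 15 were higher and 1 (Timd4, at 0.451 times) was lower, beside 33.3% and 8.26% of all genes, and at day 7, 8 of 15 were higher, beside 32.7%. Of 15 other recruited-type genes, among them Ccr2, the receptor by which monocytes leave the marrow, 12 were at least 2-fold higher at 1 dpi and 14 at both 3 and 7 dpi, beside 17.4%, 33.3% and 32.7% of all genes, and 11 fell at least 2-fold from day 3 to day 7, beside 11.8%. Pf4 made up 44.2% of the other resident-type UMIs at day 1, and platelets carry it too.

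Of the type 2 response, Il13 was at 0 in all 4 sections and Il4 had 1, 0, 0 and 3 UMIs, which leaves their levels undetermined at this depth. Their shared receptor chain Il4ra was at 13, 38.1, 135 and 24.1 CPM at days 0, 1, 3 and 7, highest at day 3, when Retnla was low. Il33, an alarmin of stromal cells, was at 3.72, 3.52, 31.4 and 16.0 CPM. Over this list of 15 genes, 5 of 11 genes with enough UMIs were at least 2-fold higher and 1 lower at 1 dpi. At 3 dpi 8 of 13 were higher and 1 lower, and at 7 dpi 4 of 12 were higher and 0 lower. The shares of all genes that were higher, 17.4%, 33.3% and 32.7% on these days, put the count at 7 dpi at the background. Of all genes 11.4%, 8.26% and 2.13% were lower, so the counts of lower genes were near the background.

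Of 10 genes that handle arginine, 4 were at least 2-fold higher and 2 lower at 1 dpi, and 5 higher and 2 lower at 3 dpi. By 7 dpi 5 of 9 were higher and 0 lower. All genes gave 17.4%, 33.3% and 32.7% higher and 11.4%, 8.26% and 2.13% lower on those days. Odc1, which makes putrescine from the ornithine that arginase forms, was at 50.2, 353, 258 and 103 CPM at days 0, 1, 3 and 7, so its highest section was that of Arg1. Srm, which makes spermidine from putrescine, was at 17.1, 52.7, 78.2 and 36.9 CPM. Nos2, the nitric oxide synthase that competes with arginase for arginine, was at 3.40, 1.31, 0.820 and 2.92 CPM. The arginine transporter Slc7a2 had 43.7, 18.8, 18.5 and 57.1 CPM, lower at days 1 and 3 than in the uninjured section. Arg2, the mitochondrial arginase, had 0, 0.834, 1.37 and 0.0478 CPM.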

How the data were processed

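Visium spatial transcriptomes of 4 sections, 1 per day, were analysed from the gene-by-spot UMI counts the authors deposited, which per the file headers were written by spaceranger 1.2.0 and carry no normalization. The submitters' processing notes name Space Ranger and build mm10, which is GRCm38, the paper's methods also name Space Ranger for the sections, with a later version than the headers give, and the labels' protocol text names Cell Ranger. The headers were followed, and the sources differ on the version. Sections were grouped by day from the sample titles. All spots in the deposited matrices were used, with no image or position analysed here, and no doublet caller was run because a spot holds several cells.

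The level of a gene was its UMI sum across a section, divided by the section total. Levels carry exact Poisson intervals, ratios exact conditional binomial intervals, and shares Clopper-Pearson intervals, all at 95% and for counting error only. The floor for a gene with few UMIs was 3 UMIs per section. For the background share, a gene needed 10 or more UMIs in the pair of sections compared, and it was called at 2-fold or more. With 1 section per day no test was made. For spot shares each spot was reduced to 2000 UMIs. Comparisons of the richest spots with the other spots also left out spots below 2000 UMIs. Regions were Leiden clusters of the log-normalized counts within a section, without the 9 genes, the marker lists, mitochondrial and haemoglobin genes. For each of the 9 genes the 3 genes most alike across regions were named among those with at least 200 UMIs, and for each region its 5 leading genes with at least 50 CPM, except that those of 1 region are not reported here. The 9 genes and the gene lists were chosen with earlier results of these data known. Alternatives were other scalings (edgeR 4.0.16 TMM factors, DESeq2 1.42.0 size factors, a total without muscle genes, the pan-macrophage list), spots with at least 1000 UMIs, other thinning depths, the top 20% of spots, a finer clustering and, chosen after seeing the data, the same scalings for single genes and each pan-macrophage gene alone as the denominator. The interval and ratio code was tested on simulated data. Software was Python 3.11.15 with Scanpy 1.11.5, pandas 2.3.3, leidenalg 0.10.2, SciPy 1.17.1, matplotlib 3.10.9 and NumPy 2.4.6, and R 4.3.3.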

Additional observations from a re-analysis of the deposited data

How the results depend on the processing

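Of 70 recomputed list, ratio and rho values, 34 stayed within counting error, 30 moved and 6 changed sign, and the causes were not tested. The median log2 ratio of the resident-type genes to day 0 was -0.20, 0.98 and 0.58 at days 1, 3 and 7. At day 3 it was 0.43 with TMM factors, 0.42 with DESeq2 size factors, 0.51 with a total without muscle genes and 1.32 from summed UMIs, and at day 7 it was -0.027, -0.055, 0.26 and 0.39. Scaled to the pan-macrophage list it was -2.05, -2.95 and -1.52. The recruited-type median, 6.96, 6.5 and 1.48, became 5.10, 2.57 and -0.63 on that list and 3.43 and 3.49 from summed UMIs at days 1 and 3, and at day 7 it was 0.87 with TMM and 0.84 with DESeq2 factors. The log2 of resident-type over recruited-type UMIs, 3.21, -0.21, 1.04 and 1.98 at days 0, 1, 3 and 7, was 7.42, 0.27, 1.51 and 5.83 with Clec10a counted as resident-type and 6.43, -0.66, 0.55 and 4.53 without the most counted gene of each list. Spearman's rho between the lists at day 1 was 0.17 at 1000 UMIs per spot, 0.14 given the pan-macrophage UMIs and 0.16 given the myofibre UMIs. At day 3 it was 0.089 at 1000, 0.24 at 4000, 0.064 given the macrophage and 0.086 given the myofibre UMIs, and at day 7 it was 0.092, 0.20 and, given the macrophage UMIs, 0.11.

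Among single genes the log2 ratio to day 0 turned at day 7 for Cd163 (-0.011 with DESeq2 factors), Folr2 (-0.027 with TMM, -0.055 with DESeq2) and Lyve1 (-0.23 and -0.26). Per UMI of a single macrophage gene, the ratio of Mrc1 turned at day 1 against Csf1r (0.0012), C1qa (0.67) and C1qc (0.68) and at day 7 against Mertk (0.16), and that of Clec10a at day 1 against C1qa (0.15) and C1qc (0.15) and at day 7 against Csf1r (0.015), Mertk (0.26) and Cd14 (0.089). With the top 20% of spots, Retnla by myofibre genes at day 7 was at 1.10 times (0.937 to 1.28), within counting error of 1, and the log2 ratio turned for Retnla by neutrophil genes at day 1 (-0.045) and for Mrc1 and Folr2 by adipocyte genes at day 3 (-0.27 for each). No paired analysis was possible because each day has 1 section and no test was made. The day 1 section had the fewest UMIs, and Arg1 at days 0 and 7 rests on 4 UMIs each, so small changes there could not be detected at this depth.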
